A study of Mus musculus with 6 samples.

Results

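The 9 purine receptor genes described here were followed in PM that had been treated with GSK-J4 alone or with LPS and GSK-J4. They were chosen by symbol and comprised 3 P2X channel genes (P2rx1, P2rx4 and P2rx7), 2 P2Y receptor genes (P2ry2 and P2ry14) and 4 adenosine receptor genes (Adora1, Adora2a, Adora2b and Adora3), out of 24411 genes in the count tables. PM are microglia shaken off mixed glial cultures, here from brains of ICR mice at postnatal day 3, with the brains of 12 mice pooled. All 6 libraries came from cells that received GSK-J4 (10 μM), an inhibitor of the H3K27 demethylase JMJD3. In 3 of them the cells also received LPS (10 ng/ml), the bacterial endotoxin that is sensed by TLR4, and RNA was taken at 4-h. Untreated PM, PM treated with LPS only and BV-2 microglial cells were not analysed here, so each difference below is the response to LPS in the presence of GSK-J4. The cells were shaken off and plated without sorting, and in RNA from such a culture fewer cells of a type and less RNA per cell cannot be told apart.

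Extracellular ATP, ADP and UDP signal through purine receptors when cells are damaged or release nucleotides. P2X receptors are ATP-gated cation channels, P2Y receptors are coupled to G proteins, and adenosine receptors sense the nucleoside that remains when ectoenzymes strip the phosphates off. Microglia use P2Y12 to move towards injury, P2Y6 to take up debris, P2X4 in responses to nerve damage, and P2X7, which opens at high ATP, to trigger the NLRP3 inflammasome and the release of mature IL-1β.

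P2rx7 and P2rx4 lie next to each other on the plus strand of chromosome 5 in mm10, P2rx7 at 122643911 to 122691432 and P2rx4 at 122707544 to 122729738, with 16111 bases between them. P2rx7 shares 119 exon bases with Mir8115 on the same strand. Their upstream sequences are shown because these were the members with a difference between the groups, and they are the 250 bases before the start that RefSeq gives in GRCm38.p6. RefSeq places the start of P2rx7 slightly downstream of the GENCODE start given above. For P2rx7 the stretch is chr5:122643677-122643926 and for P2rx4 chr5:122707294-122707543. Capitals mark a match to the AP-1 motif TGANTCA.
P2rx7: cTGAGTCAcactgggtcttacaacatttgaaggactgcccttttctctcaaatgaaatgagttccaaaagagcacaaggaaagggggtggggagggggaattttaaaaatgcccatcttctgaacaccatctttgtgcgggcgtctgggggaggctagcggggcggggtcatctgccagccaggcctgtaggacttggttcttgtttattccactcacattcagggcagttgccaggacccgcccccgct
P2rx4: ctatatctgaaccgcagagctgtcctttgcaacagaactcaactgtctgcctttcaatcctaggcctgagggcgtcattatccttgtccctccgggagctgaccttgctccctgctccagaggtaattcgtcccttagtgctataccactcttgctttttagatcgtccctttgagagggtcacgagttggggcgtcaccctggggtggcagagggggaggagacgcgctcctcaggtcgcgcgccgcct
The match in P2rx7 lay at positions -249 to -243 from the start. The motif is its own reverse complement, so any match to it is found on both strands. Of 32841 mouse promoter windows of 300 bases, from 250 before to 50 after the start, 7.81% held this motif. The P2rx4 window held none of the 6 motifs searched on both strands, which were also the kappaB motif (1.63% of windows), the CRE TGACGTCA (1.79%), the ISRE (3.44%), the GAS TTCNNNGAA (8.3%) and the hypoxia element ACGTG (19.6%). Windows were found for 8 of the 9 genes, all except Adora2a. AP-1 letters also occurred in P2ry14, Adora1 and Adora3, kappaB letters in P2rx1 at positions -20 to -11, and ACGTG in P2ry2 and Adora1. These are matches of letters and not binding sites.

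Counts on genes ranged from 2597505 to 3472716 fragments over the libraries. The ribosomal RNA precursor Rn45s held 25.6% ± 5.88 (SD, n = 3) of them in GSK-J4 against 47.1% ± 1.15 in LPS + GSK-J4 (2-sided exact permutation test, p = 0.1, the smallest that 3 libraries against 3 allow). The 9 receptor genes together had 1474, 1644 and 1017 counts in the GSK-J4 libraries and 543, 530 and 469 in the LPS + GSK-J4 libraries. Levels are given as CPM, the counts per 1e6 counts of the library after scaling by TMM factors. The floor used, 3 counts, takes in counting error alone. It was worth 0.708, 0.673 and 1.10 CPM in the GSK-J4 libraries and 1.17, 1.14 and 1.24 CPM in the LPS + GSK-J4 libraries. Low genes were therefore measured less precisely in LPS + GSK-J4 and in GSK-J4 replicate 3 than in GSK-J4 replicates 1 and 2. Replicate 3 of both groups stood apart from the other libraries on the second principal component, which held 16.4% of the variance. The response to LPS was checked with Tnf, Nfkbia, Il1b and Il6, and 4 of 4 were higher in LPS + GSK-J4, with log2-fold changes of 3.13 to 6.95.

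Genes were tested with edgeR's quasi-likelihood test with Benjamini-Hochberg adjustment over 10133 genes left after low counts were filtered out. A gene was called where its adjusted p did not exceed 0.01 and its log2-fold change reached 1.5 in size, up or down. Of the 9 receptor genes, 3 passed the filter (P2rx4, P2rx7 and P2ry2), each with 70 or more counts in every library. By this test 0 of the 3 were called, against 3.76% of all tested genes (2.95% higher and 0.809% lower). At the same adjusted p with no threshold on the fold change, P2rx7 and P2rx4 were lower in LPS + GSK-J4, as were 5.46% of all tested genes. These were also the 2 members with an unadjusted p under 0.05, a cut at which 15.5% of all tested genes were lower and 19.3% higher. At an adjusted p up to 0.05 and a log2-fold change of 1 or more in size, P2rx7 alone was lower, as were 2.81% of all tested genes. DESeq2 called P2rx7 lower, as it did 0.782% of the genes it tested.

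**Figure D1:**
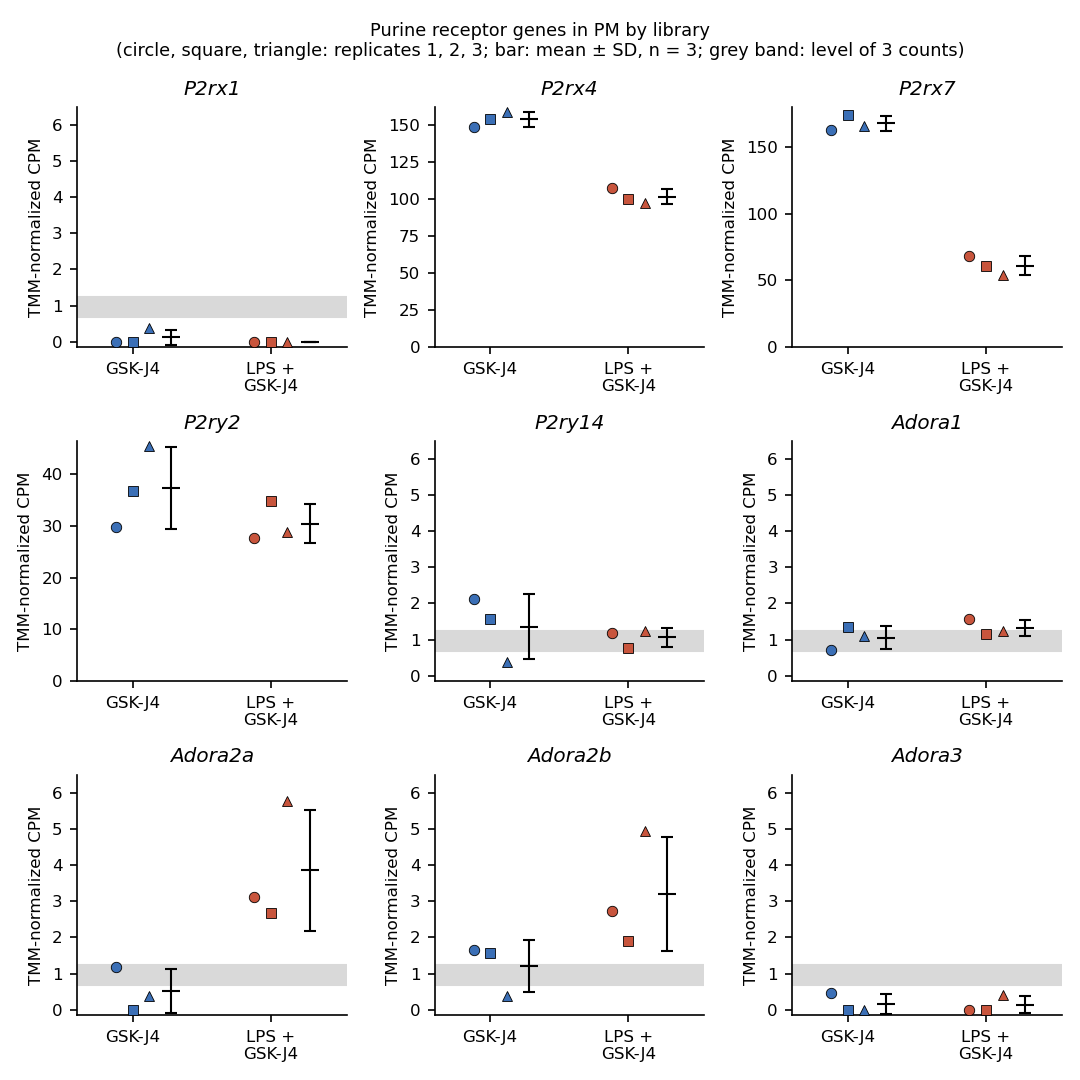
TMM-normalized CPM (y axis) of the 9 receptor genes in each GSK-J4 and LPS + GSK-J4 library; points are libraries, bars are mean ± SD (n = 3), and the grey band is the level of 3 counts. P2rx7 and P2rx4 were lower in all 3 LPS + GSK-J4 libraries, the P2ry2 groups overlapped, and Adora2a and Adora2b were higher in all 3 LPS + GSK-J4 libraries at a few CPM.

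P2rx7, whose ATP-gated channel triggers the NLRP3 inflammasome, differed most of the 3 tested members. It had 692, 776 and 453 counts in the GSK-J4 libraries and 175, 160 and 131 in the LPS + GSK-J4 libraries. After scaling these were 163, 174 and 166 CPM against 68.3, 61.1 and 54.1 CPM. The groups were far apart, with the lowest GSK-J4 library well above the highest LPS + GSK-J4 library and little spread within a group. Groups without overlap in this direction were found in 18.4% of all tested genes. The mean was 168 ± 5.67 CPM (SD, n = 3) in GSK-J4 against 61.1 ± 7.10 CPM in LPS + GSK-J4, and the log2-fold change was -1.46 (standard error 0.13, edgeR adjusted p = 5.61e-07). The level was therefore 2.74-fold higher without LPS (95% interval 2.27 to 3.32). A log2-fold change this low or lower was found in 106 of the tested genes (1.05%). The interval of the log2-fold change, -1.73 to -1.18, spans the threshold of 1.5, and the call turned on the processing. The log2-fold change was -1.503 with DESeq2, -1.51 without a filter on low counts and -1.54 without LPS + GSK-J4 replicate 1, and P2rx7 was called in each of these (without the filter, 0.633% of genes were called lower). In 15 of 15 alternatives its adjusted p was at most 0.01, with log2-fold changes between -1.54 and -1.09.

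P2rx4, the other ATP-gated channel that was well measured, differed less. It had 630, 684 and 433 counts in GSK-J4 against 275, 262 and 235 in LPS + GSK-J4. These corresponded to 149, 154 and 159 CPM against 107, 99.98 and 97.0 CPM, again with no overlap between the groups. The groups did not overlap, with LPS + GSK-J4 lower, in 18.4% of all tested genes. The mean was 154 ± 5.06 CPM (SD, n = 3) in GSK-J4 against 101 ± 5.30 CPM in LPS + GSK-J4, and the log2-fold change was -0.60 (standard error 0.12, 95% interval -0.85 to -0.35, edgeR adjusted p = 0.00145). The adjusted p was 0.0137 without LPS + GSK-J4 replicate 2. With the fragments of 8 microglia marker genes as the library size, a scaling chosen after seeing the data, the log2-fold change was -0.24 (edgeR adjusted p = 0.129). P2rx1 had 1 count in GSK-J4 replicate 3 and 0 in the other 5 libraries, below the floor of 3 counts in every library, so no fold change is given. At this depth a P2rx1 level under that floor could not be told from 0.

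The genes around P2rx7 and P2rx4 had small fold changes. Within 250000 bases on either side, 8 other genes were tested, among them Camkk2, Atp2a2 and Kdm2b. Their log2-fold changes were between -0.22 and 0.22. By edgeR 0 were called, against 3.76% of all tested genes, so 0 of 8 is near that share. An unadjusted p under 0.05 was met by 0, a cut at which 15.5% of all tested genes were lower and 19.3% higher. This window was chosen after the values of P2rx7 and P2rx4 were seen.

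Of the P2Y receptors, P2ry2, which binds ATP and UTP (chromosome 7, 100996568 to 101012866, minus strand), had 126, 164 and 124 counts in GSK-J4 against 71, 91 and 70 in LPS + GSK-J4. The scaled levels, 29.7, 36.8 and 45.5 CPM against 27.7, 34.7 and 28.9 CPM, overlapped. The mean was 37.3 ± 7.88 CPM (SD, n = 3) and 30.4 ± 3.75 CPM, and the log2-fold change was -0.28 (standard error 0.19, edgeR adjusted p = 0.317). The 95% interval of -0.67 to 0.12 holds both no difference and a decrease. With microglia markers as the library size the sign turned, with a log2-fold change of 0.08 (edgeR adjusted p = 0.756). P2ry14, the receptor for UDP-glucose (chromosome 3, 59113855 to 59153618, minus strand, within Med12l on the opposite strand), had 9, 7 and 1 counts against 3, 2 and 3. It was under 3 counts in 2 of the 6 libraries and was not tested with the filter. Without the filter its log2-fold change was -0.50 (standard error 0.73, edgeR adjusted p = 0.668), and a difference was not detectable at this depth.

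**Figure D2:**
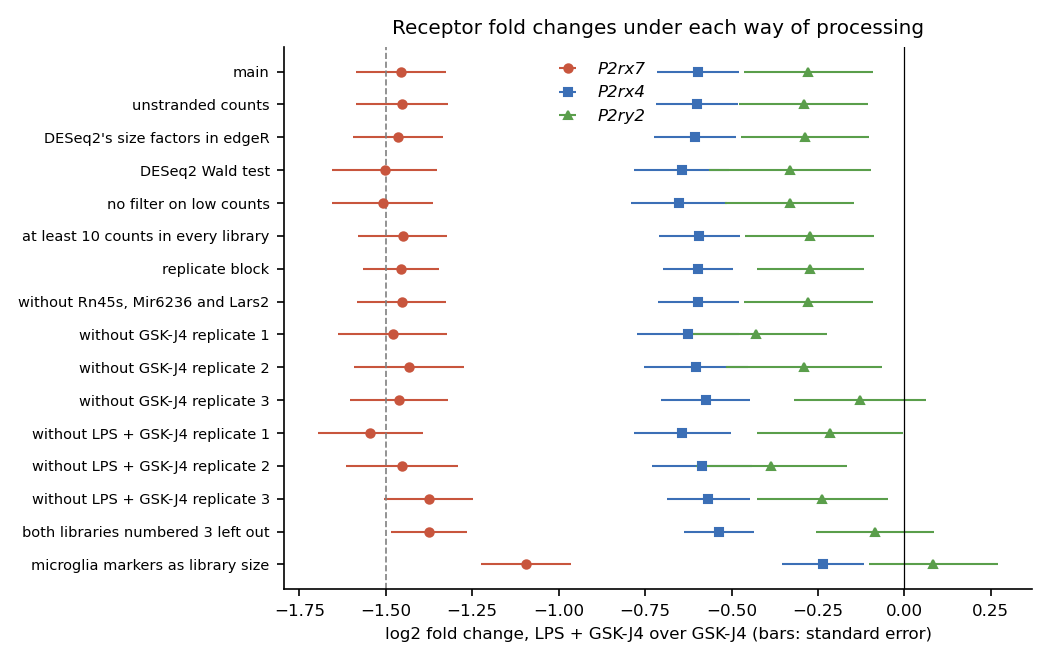
Log2-fold change (x axis) of P2rx7, P2rx4 and P2ry2 under the main processing and each of 15 alternatives (y axis); bars are standard errors and the dashed line is the threshold of -1.5. P2rx7 stayed between -1.54 and -1.09 and P2rx4 between -0.65 and -0.24, while P2ry2 changed sign to 0.08 with microglia markers as the library size.

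The adenosine receptors were at the edge of detection, and 0 of 4 passed the filter. Adora2a, which is coupled to Gs and raises cAMP (chromosome 10, 75316877 to 75334784), had 5, 0 and 1 counts in GSK-J4 against 8, 7 and 14 in LPS + GSK-J4. These were 1.18, 0 and 0.367 CPM against 3.12, 2.67 and 5.78 CPM. All 3 LPS + GSK-J4 libraries lay above the GSK-J4 libraries, and 2 of the GSK-J4 libraries were under 3 counts. A gap in this direction was found in 19.8% of tested genes, all of which had passed the filter that Adora2a did not pass. The mean was 0.515 ± 0.604 CPM (SD, n = 3) and 3.86 ± 1.68 CPM. Without the filter on low counts, where 2.1% of 18016 genes were called higher, the log2-fold change was 2.72 (standard error 0.66, edgeR adjusted p = 0.000486) and Adora2a was called. The size of this change rests on a handful of fragments and moved between 2.07 and 4.35 over the alternatives. The call was not met with DESeq2 (adjusted p = 0.0228), without GSK-J4 replicate 2 (edgeR adjusted p = 0.0302), without LPS + GSK-J4 replicate 3 (0.0192) or without both libraries numbered 3 (0.0422).

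Adora2b, the low-affinity Gs-coupled receptor (chromosome 11, 62248984 to 62266453), had 7, 7 and 1 counts in GSK-J4 against 7, 5 and 12 in LPS + GSK-J4. The counts overlapped, but the scaled levels, 1.65, 1.57 and 0.367 CPM against 2.73, 1.91 and 4.95 CPM, did not, as in 19.8% of all tested genes. Those genes had passed the filter, which Adora2b did not. Without the filter the log2-fold change was 1.21 (standard error 0.57, edgeR adjusted p = 0.146). It was 0.44 when both libraries numbered 3 were left out. Adora1, the Gi-coupled receptor (chromosome 1, 134199223 to 134235431, minus strand, overlapped by Mybph on the opposite strand), had 3, 6 and 3 counts against 4, 3 and 3, at or just above the floor in every library. Its log2-fold change without the filter was 0.26 (standard error 0.75, edgeR adjusted p = 0.857) and -0.07 with unstranded counts. Adora3 had 2, 0 and 0 counts against 0, 0 and 1, under 3 counts in every library. It shares 779 exon bases with Tmigd3 on the same strand, and fragments there are not counted for either gene if the annotation used for counting has both, so its level is uncertain. In all, P2rx1 and Adora3 were under 3 counts in every library, and 3 genes (P2ry14, Adora2a and Adora2b) were so in some libraries.

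Markers of cell types moved with these differences. The 8 microglia markers had negative log2-fold changes in 8 of 8 cases (median -0.37), and their summed level was 2820 to 2924 CPM in the GSK-J4 libraries and 2211 to 2252 CPM in the LPS + GSK-J4 libraries. By edgeR 0 of them were called, 6 were lower at an unadjusted p under 0.05 (15.5% of all tested genes), and 2 (Cx3cr1 and Csf1r) had an adjusted p of at most 0.01. The 8 astrocyte markers summed to 53.9 to 59.4 CPM in GSK-J4 against 131 to 159 CPM in LPS + GSK-J4. Of the 7 tested, 1 (Gfap) was called higher, as were 2.95% of all tested genes. At an adjusted p up to 0.01, 3 were higher, as were 853 of the 10133 tested genes. At an unadjusted p under 0.05, 5 were higher (19.3% of all tested genes). The 8 oligodendrocyte lineage markers summed to 182 to 212 and 352 to 402 CPM. Of the 6 tested, 0 were called, 4 were higher at an adjusted p up to 0.01 and 4 at an unadjusted p under 0.05. The 5 neuronal markers summed to 8.26 to 9.20 and 21.4 to 27.3 CPM. Of the 2 tested, 1 (Gad1) was called higher. At an adjusted p up to 0.01, 2 were higher, and 2 at an unadjusted p under 0.05. The 6 fibroblast and mural markers (77.7 to 273 and 132 to 416 CPM, 0 of 5 called and 1 at an unadjusted p under 0.05) overlapped, and Rgs5 was at 0. The 3 endothelial markers summed to 4.04 to 6.97 and 7.25 to 7.85 CPM, with 0 of 1 called, 0 at an unadjusted p under 0.05 and Cldn5 at 0. The part of these cells in the levels of the receptors, Adora2a and Adora2b included, was not tested.

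P2rx7 was also lower when counted against the microglia markers of the same library. Per 1000 marker fragments there were 57.9, 59.6 and 58.2 P2rx7 fragments in GSK-J4 against 30.6, 27.6 and 24.0 in LPS + GSK-J4. The libraries did not overlap, and the means were 58.6 ± 0.880 (SD, n = 3) and 27.4 ± 3.30 (2-sided exact permutation test, p = 0.1, the smallest possible). For P2rx4 the ratio was 53.6 ± 1.77 against 45.5 ± 2.51 (exact permutation p = 0.1), a smaller gap, and for P2ry2 it was 13.02 ± 2.73 against 13.7 ± 1.79 (exact permutation p = 0.8). P2rx7 was lower relative to P2rx4 as well. There were 1.10, 1.13 and 1.05 P2rx7 fragments per P2rx4 fragment in GSK-J4 against 0.636, 0.611 and 0.557 in LPS + GSK-J4, a ratio that needs no scaling between libraries. The mean log2 ratio in LPS + GSK-J4 minus that in GSK-J4 was -0.86 (2-sided exact permutation test, p = 0.1).

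**Figure D3:**
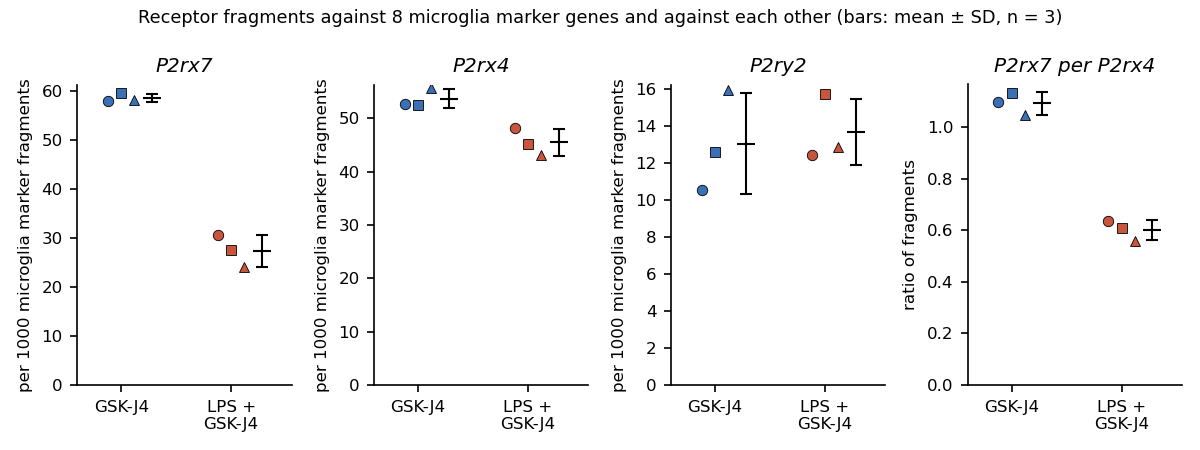
Fragments of P2rx7, P2rx4 and P2ry2 per 1000 fragments of 8 microglia marker genes, and P2rx7 fragments per P2rx4 fragment (y axes), by group; points are libraries and bars are mean ± SD (n = 3). P2rx7 was at 57.9 to 59.6 in GSK-J4 against 24.0 to 30.6 in LPS + GSK-J4, while the P2ry2 groups overlapped.

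The order of the receptors changed between the groups. Levels of different genes were compared as CPM per kb of exon. The length was that of all annotated exons of a gene joined, and the length of the transcript in these cells was not measured. In GSK-J4, P2rx7 stood at 28.1 ± 0.949 CPM per kb (SD, n = 3), P2rx4 at 21.9 ± 0.720, P2ry6 at 18.8 ± 5.63 and P2ry2 at 9.51 ± 2.01, and P2rx4 and P2ry6 did not differ beyond their spread. In LPS + GSK-J4, P2ry6 came first at 17.6 ± 1.23 CPM per kb, followed by P2rx4 at 14.4 ± 0.754, P2rx7 at 10.2 ± 1.19 and P2ry2 at 7.75 ± 0.956. The first place of P2ry6 rested on the length used. Before division by length, P2rx4 (mean 101 CPM) and P2rx7 (61.1 CPM) lay above P2ry6 (50.8 CPM) in LPS + GSK-J4. P2ry6, the UDP receptor, is not among the 9 genes but was the third best covered purine receptor. Its own levels, 44.4, 45.3 and 73.0 CPM against 48.4, 49.2 and 54.9 CPM, overlapped between the groups. Per kb of exon, P2rx7 was at 1.29 ± 0.0522 times P2rx4 (SD, n = 3) in GSK-J4 but at 0.708 ± 0.0474 times in LPS + GSK-J4, so that it lay above P2rx4 in each GSK-J4 library and below it in each LPS + GSK-J4 library. The other 6 members were at 1.73 CPM per kb or less in both groups.

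As shares of the fragments on all 19 purine receptor genes of these lists (1300 to 2001 fragments in GSK-J4, 651 to 732 in LPS + GSK-J4), P2rx7 took 39.1, 38.8 and 34.8% in GSK-J4 against 24.2, 21.9 and 20.1% in LPS + GSK-J4. The mean share was 37.6% ± 2.38 (SD, n = 3) and 22.1% ± 2.03. The share of P2rx4 was 34.4% ± 1.17 and 36.6% ± 1.19, that of P2ry6 12.01% ± 2.87 and 18.4% ± 1.78, and that of P2ry2 8.29% ± 1.21 and 10.997% ± 1.33. Each of these 4 differences had an exact permutation p of 0.1, the smallest possible, and none of these groups overlapped. Since shares sum to the whole, a smaller share of P2rx7 leaves larger shares for the rest. Of the 19 genes, 6 had 10 or more counts in every library and 2 (P2rx2 and P2ry10) had none.

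**Figure D4:**
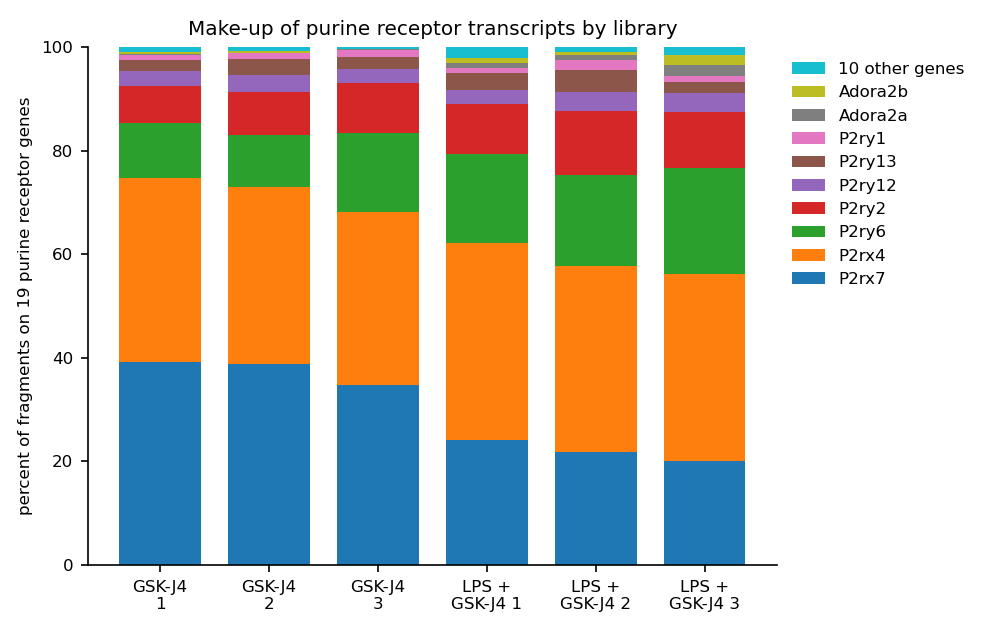
Percent of the fragments on 19 purine receptor genes (y axis) that fell on each gene, in the 6 libraries; stacked bars sum to 100, and the 10 genes with the fewest fragments are drawn together. P2rx7 filled 34.8 to 39.1% of each GSK-J4 bar and 20.1 to 24.2% of each LPS + GSK-J4 bar.

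Among the 10 purine receptor genes outside the listed 9, edgeR tested 4 and called 0 (3.76% of all tested genes), and DESeq2 called 0. The 4 tested had a median log2-fold change of -0.42, against -0.0006 over all tested genes and -0.37 over the 8 microglia markers. P2ry12, the ADP receptor of process movement, had a log2-fold change of -0.52 (edgeR adjusted p = 0.141). It was the only 1 of the 4 with an unadjusted p under 0.05, a cut at which 15.5% of all tested genes were lower. P2ry1 and P2ry13, which also bind ADP, had log2-fold changes of -0.55 and -0.32 (edgeR adjusted p = 0.329 and 0.467), and P2ry6 had -0.07 (edgeR adjusted p = 0.822). Counted per 1000 microglia marker fragments, the groups overlapped for all 4 (2-sided exact permutation tests, p = 0.4 to 0.9). For P2ry12 this ratio was 4.61 ± 0.567 (SD, n = 3) in GSK-J4 against 4.13 ± 0.710 in LPS + GSK-J4.

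The other genes of the purine pathway, from nucleotide release to the inflammasome, numbered 51. Of these 35 were tested, and edgeR called 3 higher (2.95% of all tested genes) and 0 lower in LPS + GSK-J4, with 7 higher and 4 lower at an unadjusted p under 0.05 (19.3% and 15.5% of all tested genes). DESeq2 called 2 higher (2.2% of the genes it tested) and 0 lower. Nlrp3, the sensor of the inflammasome that P2X7 activates, had 34.2, 26.9 and 28.6 CPM in GSK-J4 against 381, 353 and 391 CPM in LPS + GSK-J4. It was up-regulated with a log2-fold change of 3.64 (standard error 0.14, edgeR adjusted p = 1.23e-11), which was between 3.56 and 4.00 over the alternatives. Of its partners, the adaptor Pycard (-0.17), the protease Casp1 (-0.04), the kinase Nek7 (-0.06) and the pore-forming Gsdmd (-0.62, edgeR adjusted p = 0.0238) were not called. Each LPS + GSK-J4 library was thus higher in Nlrp3 and lower in P2rx7 than each GSK-J4 library.

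Of 7 tested genes of nucleotide breakdown and adenosine metabolism, 1 was called higher, as were 2.95% of all tested genes. Pnp, which splits inosine and guanosine, had 22.9, 26.5 and 17.2 CPM in GSK-J4 against 67.1, 57.2 and 67.7 CPM in LPS + GSK-J4. Its log2-fold change of 1.504 (standard error 0.17, edgeR adjusted p = 9.28e-06) was at the threshold, and it was called in 7 of 15 alternatives. Pnp2 lies within the span of Pnp on the same strand, and how fragments were divided between them was not tested. Entpd1 (CD39), which removes phosphates from extracellular ATP, had a log2-fold change of -0.74 (edgeR adjusted p = 0.0264), Enpp1 0.36, Adk 0.01 and Entpd7 0.10. Of 4 tested genes of nucleotide release and nucleoside transport, 0 were called by edgeR (3.76% of all tested genes). At an unadjusted p under 0.05, 1 was lower (15.5% of all tested genes). The 4 were Slc29a3 (log2-fold change -0.57, edgeR adjusted p = 0.0221), Slc29a1 (-0.26), Lrrc8a (0.04) and the ATP-releasing channel Panx1 (0.02).

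Of 19 tested genes of G protein and cAMP signalling, which P2Y and adenosine receptors use, 1 was called higher (2.95% of all tested genes). Pde4b, a phosphodiesterase that breaks down cAMP, had 55.0, 38.8 and 28.6 CPM in GSK-J4 against 186, 157 and 151 CPM in LPS + GSK-J4. It was up-regulated with a log2-fold change of 1.99 (standard error 0.19, edgeR adjusted p = 8.75e-07), and was called in 15 of 15 alternatives. Gna11, named after its value was seen, had a log2-fold change of 0.99 (edgeR adjusted p = 0.00975), below the threshold on the fold change. The best covered genes, Gnai2 (-0.15), Gnas (0.30), Gnaq (-0.16) and Adcy7 (-0.12), were not called. The median log2-fold change was 0.06 for this list, 0.01 for breakdown and metabolism, -0.12 for release and transport and -0.06 for the inflammasome.

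**Figure D5:**
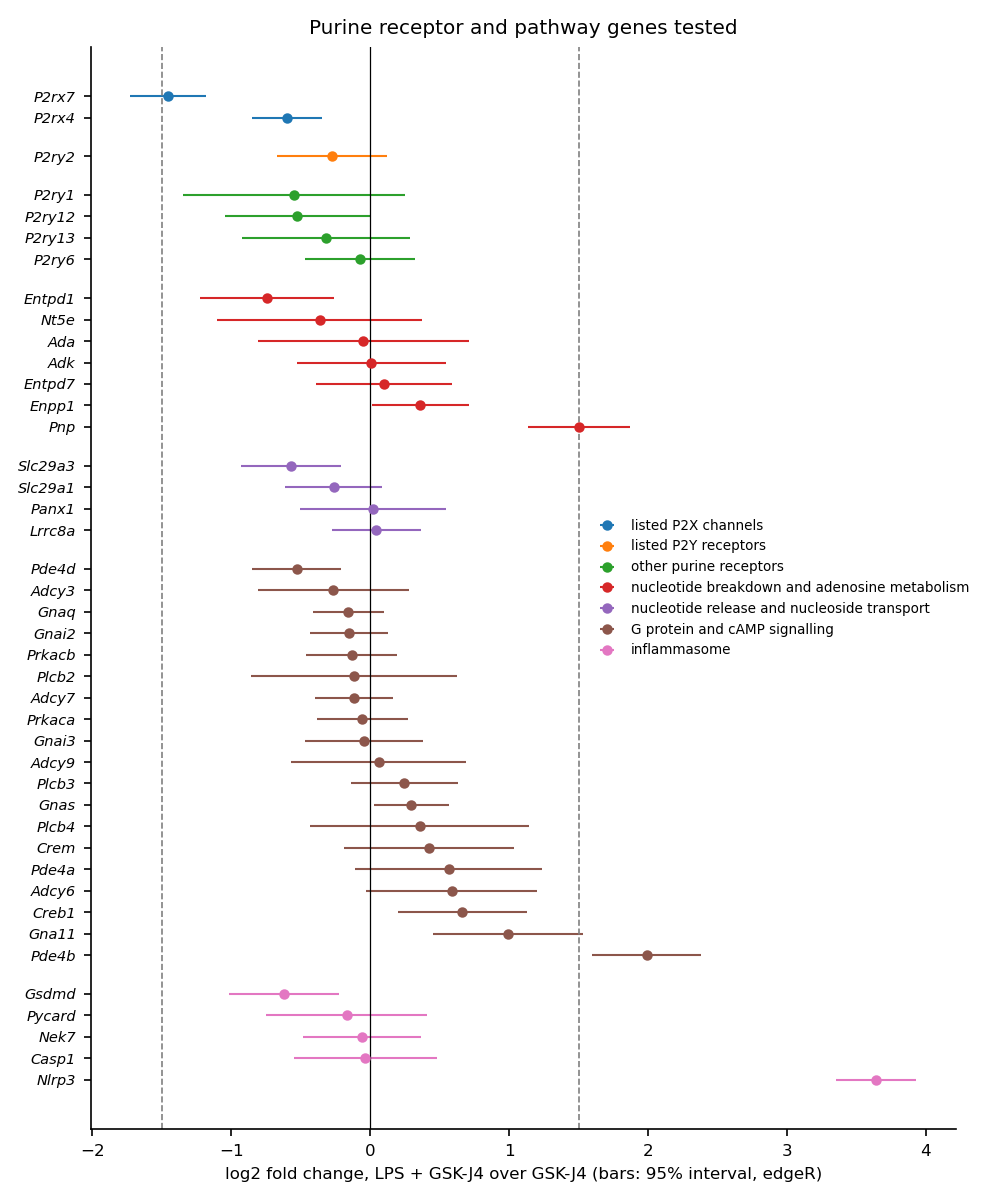
Log2-fold change of LPS + GSK-J4 over GSK-J4 (x axis) for the tested purine receptor and pathway genes, grouped by list; bars are 95% intervals from edgeR and dashed lines mark the threshold of 1.5 in either direction. Nlrp3 at 3.64, Pde4b at 1.99 and Pnp at 1.504 lay past the upper line, and P2rx7 at -1.46 just short of the lower line.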

How the data were processed

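The authors trimmed adapters with Trimmomatic 0.33, aligned the paired reads of rRNA-depleted, directional libraries to mm10 with STAR 2.5.1 (CASAVA 1.8.2 and DESeq2 are also in the submitters' processing notes), and deposited a table of raw counts by gene per library. STAR counts uniquely mapped fragments that overlap 1 gene. The annotation used for counting is not given in the sources used here. The reverse-strand column was used (same-strand fragments 0.966 to 1.38%), and 74.0 to 78.0% of fragments were not assigned to a gene. Groups and replicate numbers came from the titles.

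The test used edgeR 4.0.16 and limma 3.58.1 under R 4.3.3 (TMM, filterByExpr at min.count 10 and min.total.count 15, robust quasi-likelihood test, no covariates; common biological coefficient of variation 0.133). DESeq2 1.42.0 was an alternative. The model was tested on simulated data. The replicates were stated by the study to be independent RNA samples. Positions and exon lengths are from GENCODE M21, promoters from RefSeq (GRCm38.p6), and figures from Python 3.11.15 (pandas 2.3.3, matplotlib 3.10.9).

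The receptor genes and lists were chosen with earlier results of these data known. All 9 members were named, with every called gene of the pathway lists and at most the 4 best covered genes not called; genes of similar pattern were to be named for called members only, and none was called. The alternatives covered the unstranded column, the size factors or the test of DESeq2, 2 other filters, 2 other thresholds, removal of Rn45s, Mir6236 and Lars2, the replicate number as a block, and each library left out. Leaving out both libraries numbered 3 and scaling to microglia markers were added after seeing the data.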

Additional observations from a re-analysis of the deposited data

Results flagged for a closer look

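Fragments on the opposite strand to P2rx4, which the comparisons above do not use, were slightly more frequent per 1e6 counts in LPS + GSK-J4 than in GSK-J4. They numbered 4, 10 and 2 in the GSK-J4 libraries (16 in all, 1.40 per 1e6) and 1, 1 and 9 in the LPS + GSK-J4 libraries (11 in all, 1.45 per 1e6). The groups overlapped, 9 of the 11 fragments came from 1 library, and the difference was not tested. For P2rx7 the opposite strand held 46 fragments (4.03 per 1e6) in GSK-J4 against 15 (1.97 per 1e6) in LPS + GSK-J4, or 2.39 against 3.22 for every 100 fragments counted on P2rx7.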

How the results depend on the processing

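Of the members, 0 were called lower and 0 higher. The count lower was 1 with the DESeq2 Wald test, without a filter, and with looser thresholds (adjusted p up to 0.05, log2-fold change of 1 or more), and 2 at an adjusted p of at most 0.01 at any fold change. It ranged from 0 to 1 when a library was left out, with 1 (P2rx7) without LPS + GSK-J4 replicate 1. The count higher was 1 (Adora2a) without a filter. For the other pathway genes 2 to 4 were called higher and 0 lower under the alternatives. Over all genes, 299 were called higher and 82 lower. The counts were 176 higher with at least 10 counts in every library, 685 higher and 37 lower with microglia markers as the library size, 853 and 553 at any fold change, and 844 and 285 at the looser thresholds. They were 271 to 374 higher and 79 to 100 lower when a library was left out. Microglia markers as the library size moved the median log2-fold change of all genes to 0.36, DESeq2 to 0.13 and no filter to 0.12, and the share of calls that were higher went from 78.5% to 94.9% with the first. Signs turned for P2ry2 (0.0835 with microglia markers as the library size) and Adora1 (-0.0733 with unstranded counts), neither called. The cause was not tested.

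Whether the replicate numbers pair the libraries could not be settled with 3 libraries per group. The correlation of deviations between libraries with the same number was -0.0102, 0.117 and 0.295. Between libraries with different numbers it ranged from -0.29 to 0.243. With the replicate block, 306 genes were called higher and 90 lower, and 0 members. The log2-fold changes were then -1.46 for P2rx7 (edgeR adjusted p = 2.68e-15) and -0.60 for P2rx4 (edgeR adjusted p = 7.07e-06). Both adjusted p were smaller than without the block. Libraries did not all correlate best with their own number. Depth limited P2rx1, P2ry14 and the adenosine receptors.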
